A study of Mus musculus with 83 samples.

Results

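The 38 genes described here serve the uptake of glucose, its breakdown to lactate, the pentose phosphate pathway and the response to low oxygen. They were taken by name from a list of such genes, all 38 were found among the 21572 rows of the count table, and 37 of them were among the 11889 rows with enough counts to be tested. Egln1, an oxygen-sensing prolyl hydroxylase that marks HIF proteins for destruction, was the member left out, with group medians between 0 and 1.66 CPM (TMM-scaled counts relative to library size). The genes were followed in 83 RNA libraries, each from 1 ovarian follicle of a CD-1 mouse (wild type), to ask whether follicles that had been vitrified, cooled to a glass without ice, answer hCG in culture as fresh ones do.

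In a follicle, granulosa cells surround the oocyte, take up glucose through facilitative transporters and turn much of it into pyruvate and lactate, which they pass to an oocyte that uses glucose poorly. Phosphofructokinase sets the pace of glycolysis, lactate dehydrogenase and monocarboxylate transporters close and empty the pathway, and the pentose phosphate branch makes NADPH and ribose. HIF transcription factors, held down by prolyl hydroxylases while oxygen is present, raise many glycolytic genes, and gonadotropins are known to raise HIF1A in granulosa cells.

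All follicles, vitrified and fresh, grew for 8 days in beads of 0.5% alginate, and those of 300 to 350 µm went into medium with hCG (1.5 IU/ml), which acts at the receptor of luteinizing hormone, plus recombinant FSH (10 mIU/ml) and EGF (10 ng/ml). They were collected 0, 1, 4 or 8 h later. For all groups the labels also give serum (FBS, 10%), the supplement ITS (5 µg/ml) and 5% CO2. The library titles carry 3 prefixes, and only that of the 0 h libraries names a plate. The 3 sets are called plates here and are kept apart. The 15 vitrified and 18 fresh libraries of 0 h had a plate of their own. A shared plate held 5 vitrified and 6 fresh libraries of 1 h, 7 and 7 of 4 h, and 3 and 4 of 8 h. There the sample numbers in the titles repeat between fresh 4 h and fresh 8 h and between fresh and vitrified 1 h libraries. Whether they mark separate runs is not given. A run difference cannot be told apart from differences that involve these groups. The vitrified-only plate had 9 libraries from 1 h and another 9 from 8 h. Since no label gives an animal or a culture run, the p-values cover the follicle-to-follicle spread alone, and part of that may be technical. A whole follicle was read, so more cells of a type and more RNA per cell cannot be told apart.

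Total counts ranged from 682200 to 6504588 with a median of 2765962. The 10 granulosa markers summed to group medians of 1.61 to 10.2% of counts, falling with time. Inha, Inhba, Nr5a2, Esr2, Gja1 and Hsd17b1 were present in all 83 libraries. Fshr and Foxl2 were at 0 in 2 libraries each, Cyp19a1 in 4 and Amh in 54. Oocyte markers were close to 0 although the samples are labelled as follicles: the 13 genes together had group medians of 0.00165 to 0.00537% of counts, Kit was at 0 in no library, Padi6 in 1, Gdf9 and Bmp15 in 3 each, Zp3 in 14 and Figla in 72. Theca and stroma markers had group medians of 0.026 to 0.132%, and of 5 immune markers Lyz2 was at 0 in 16 libraries, Csf1r in 44, Cd68 in 48, Ptprc in 66 and Adgre1 in 72. The part of these cell markers in the results below was not tested. Scaling matters for steps over time: with total counts alone in place of TMM, the median log2 fold change of all tested genes moved from 0.17 to 0.73 in vitrified and from 0.12 to 0.75 in fresh follicles for 8 h against 4 h, and in fresh follicles stayed at -0.03 for 4 h against 1 h. In this text a member is called where edgeR's quasi-likelihood test gave an adjusted p under 0.05, and log2 fold changes carry their SE. Where 3 values are given for a group of more than 5 libraries, they are the lowest, the median and the highest.

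Members changed widely between 1 and 8 h after hCG. From 1 h to 4 h, 7 of the 37 rose and 18 fell in vitrified follicles, beside 20.6% and 25.9% of all tested genes, and 9 rose and 17 fell in fresh follicles, beside 21.9% and 24.5%. The members' median log2 fold change was -0.59 in vitrified and -0.41 in fresh follicles, against -0.11 and -0.03 over all tested genes. From 4 h to 8 h, 21 rose and 3 fell in vitrified follicles (22% and 15% of all genes), and 13 rose and 7 fell in fresh follicles (20.8% and 15.7%). Here the members' medians were 0.83 and 0.51 in vitrified and fresh follicles, against 0.17 and 0.12 over all genes. Total counts alone gave 28 higher and 2 lower in vitrified and 25 higher and 3 lower in fresh follicles for that step.

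**Figure D1:**
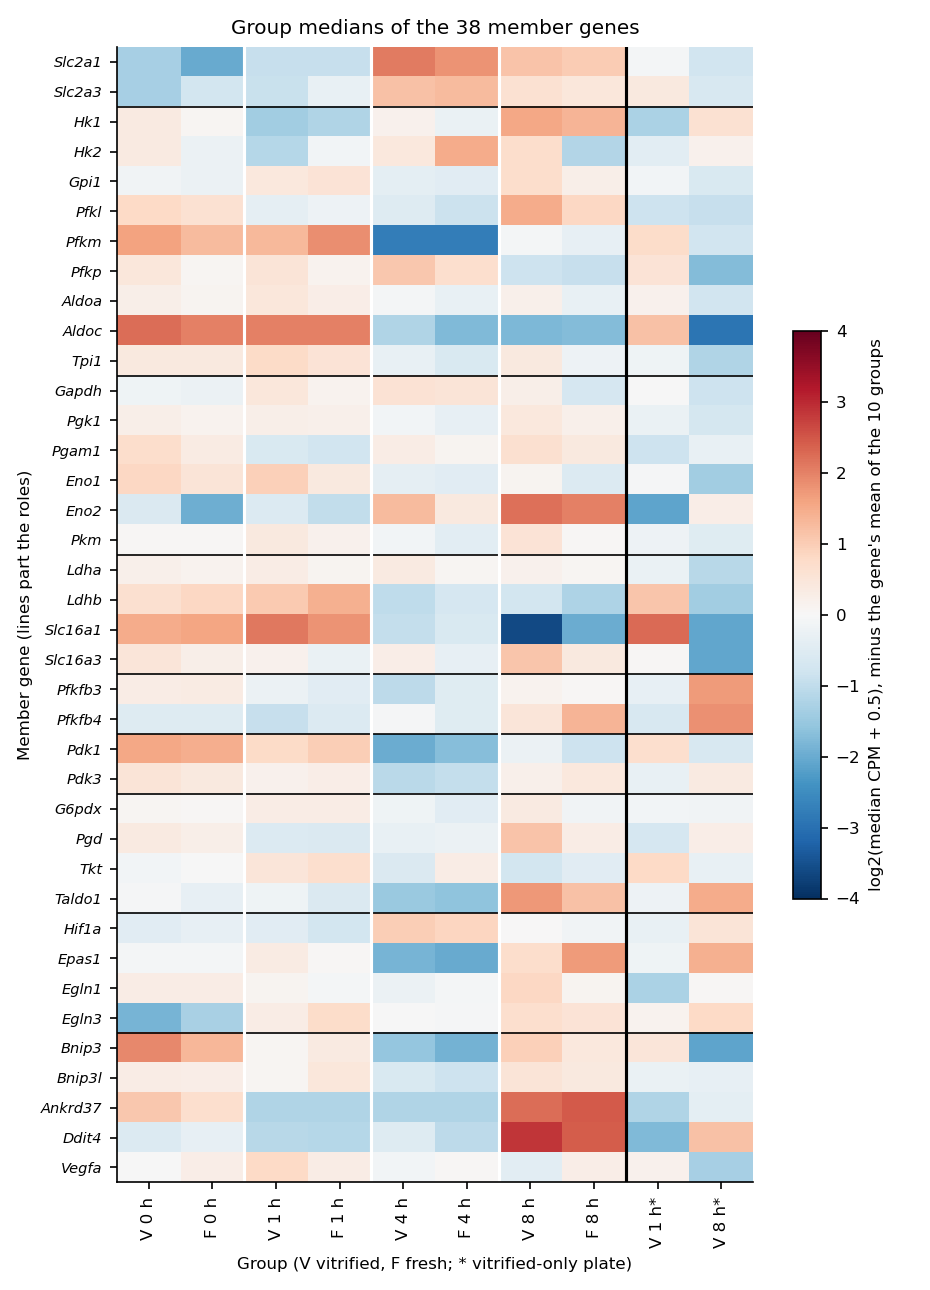
Median CPM of the 38 members in 10 groups, as log2(median CPM + 0.5) minus the gene's own mean over the groups, with red high and blue low, vitrified left of fresh at each time, and the vitrified-only plate to the right of the black line. Pfkm and Pdk1 are lowest at 4 h, Slc2a1 is highest there, and Ddit4 and Ankrd37 are highest at 8 h on the shared plate.

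Both glucose transporters rose to 4 h. Slc2a1 (GLUT1), the basal transporter of many tissues, had 38.4, 39.8, 51.3, 79.5 and 99.3 CPM in vitrified follicles at 1 h and 47.1, 51.8 and 61.0 CPM in fresh ones. By 4 h it had 211, 420 and 609 CPM in vitrified and 217, 345 and 535 CPM in fresh follicles. By 8 h it had 180, 218 and 311 CPM in the 3 vitrified and 108, 150, 247 and 275 CPM in the 4 fresh libraries of the shared plate. On the shared plate every 4 h and every 8 h library stood above every 1 h library. The rise from 1 to 4 h was 2.67 ± 0.43 in vitrified (edgeR adjusted p = 2.64e-07) and 2.77 ± 0.40 in fresh follicles (1.92e-08). The 8 h against 4 h difference, -0.73 ± 0.47 and -0.88 ± 0.43, was called in neither.

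Slc2a3 (GLUT3), a high-affinity transporter known from neurons and embryos, was scarce. It had 0, 0.404, 0.550, 1.22 and 1.74 CPM in vitrified and 0.413, 1.09 and 1.66 CPM in fresh follicles at 1 h, then 0, 3.89 and 12.1 CPM and 0.650, 4.18 and 11.6 CPM at 4 h. At 8 h the gene had 2.27, 2.50 and 2.90 CPM in vitrified and 0.552, 2.13, 2.19 and 2.93 CPM in fresh libraries. The rise to 4 h was 2.73 ± 0.71 and 2.45 ± 0.68 in vitrified and fresh follicles. The fall to 8 h was called in fresh follicles (-1.65 ± 0.68, adjusted p = 0.0486) and that call was lost without any 1 of the 4 fresh 8 h libraries (-1.35 to -1.83) and with DESeq2's size factors (-1.61). Per length, Slc2a1 held a median of at least 98.8% of the summed TPM (the authors' scale, corrected for transcript length and depth) of both genes in each of the 10 groups.

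The promoter of Slc2a1 is shown because the gene had the largest called rise to 4 h in fresh follicles. The RefSeq table of promoters (build GRCm38.p6) matched 35 of the 38 members. The window of Slc2a1 runs from 250 bases before to 50 after the start of the gene on chromosome 4, chr4:119108495-119108794, plus strand. Capitals mark the core of the motif that HIF factors bind, ACGTG or GCGTG, on either strand:
Slc2a1: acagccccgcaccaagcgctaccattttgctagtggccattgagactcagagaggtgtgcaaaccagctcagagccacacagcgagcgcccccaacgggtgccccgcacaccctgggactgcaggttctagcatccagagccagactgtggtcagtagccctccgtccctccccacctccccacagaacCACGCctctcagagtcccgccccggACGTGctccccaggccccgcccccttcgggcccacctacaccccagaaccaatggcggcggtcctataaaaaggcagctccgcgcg
This window held 2 matches. Of 32841 promoters of this length in mouse, 43.8% held at least 1 match, and 32 of the 35 member genes did in at least 1 of their promoters (91.4%, beside 46.7% of all genes). A match is letters only.

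Hexokinases, which trap glucose as glucose 6-phosphate, had different courses. Hk1, the mitochondria-bound form of most tissues, had 1.22, 1.9, 1.93, 3.64 and 7.38 CPM in vitrified and 1.23, 2.29 and 5.46 CPM in fresh follicles at 1 h. It had 1.93, 6.80 and 10.2 CPM in vitrified and 2.64, 4.86 and 11.4 CPM in fresh follicles at 4 h. At 8 h it had 7.96, 18.2 and 26.1 CPM in vitrified and 11.2, 15.9, 16.1 and 16.9 CPM in fresh libraries, above every 1 h library. From 1 to 8 h it rose by 2.37 ± 0.45 in vitrified and 2.46 ± 0.44 in fresh follicles (adjusted p = 8.28e-06 and 1.88e-06). From 4 to 8 h it rose by 1.52 ± 0.41 and 1.35 ± 0.39, and the vitrified call was lost without vitrified 8 h replicate 2 (1.12, adjusted p = 0.0677).

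Hk2, the inducible form of muscle and fat, had 0, 0.808, 0.815, 1.52 and 2.17 CPM in vitrified and 0.777, 2.19 and 5.52 CPM in fresh follicles at 1 h. At 4 h the gene had 0.584, 3.40 and 13.1 CPM in vitrified and 1.14, 7.68 and 11.6 CPM in fresh follicles. At 8 h it had 3.15, 4.22 and 5.39 CPM in vitrified and 0.489, 0.552, 1.03 and 1.78 CPM in fresh libraries, which did not overlap. Both kinds rose to 4 h (2.02 ± 0.59 in vitrified and 1.53 ± 0.53 in fresh follicles). The fall from 4 to 8 h was called in fresh follicles (-2.73 ± 0.62, adjusted p = 0.000246) and had -0.14 ± 0.59 (0.881) in vitrified ones. The vitrified minus fresh difference at 8 h was 1.98 ± 0.69 and did not pass (adjusted p = 0.123), nor did the difference between the 2 kinds in that step.

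Phosphofructokinase has a liver, a muscle and a platelet form, and each had a course of its own. Pfkm, the muscle form, had 5.71, 6.06, 7.85, 10.4 and 17.9 CPM in vitrified and 7, 11.9 and 14.5 CPM in fresh follicles at 1 h. The 4 h libraries had 0, 0 and 0.486 CPM in vitrified and 0, 0 and 1.09 CPM in fresh follicles, so that most libraries held no count. By 8 h it had 1.79, 2.76 and 2.90 CPM in vitrified and 1.47, 1.84, 2.58 and 3.02 CPM in fresh libraries, which on the shared plate lay between the 1 h and the 4 h libraries and overlapped neither. The fall to 4 h was -5.75 ± 0.61 in vitrified (edgeR adjusted p = 1.91e-13) and -5.09 ± 0.54 in fresh follicles (2.61e-13). The later rise was 3.78 ± 0.75 and 2.82 ± 0.65. Pfkm shares 341 exonic bases with the overlapping gene Gm26513 on its own strand, so part of its reads could be split.

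Pfkl, the liver form, had 75.0, 84.8, 100, 101 and 105 CPM in vitrified and 88.8, 112 and 125 CPM in fresh follicles at 1 h. It had 29.2, 91.3 and 142 CPM in vitrified and 30, 71.0 and 122 CPM in fresh follicles at 4 h. At 8 h all 7 libraries of the shared plate stood above every 1 h and 4 h library, with 194, 367 and 370 CPM in vitrified and 185, 186, 272 and 275 CPM in fresh follicles. The rise from 4 to 8 h was 2.0 ± 0.35 in vitrified and 1.57 ± 0.32 in fresh follicles.

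Pfkp, the platelet form, took the other course. It had 173, 203, 213, 241 and 260 CPM in vitrified and 133, 164 and 191 CPM in fresh follicles at 1 h, and 168, 310 and 390 CPM and 188, 238 and 310 CPM at 4 h. At 8 h the gene had 78.8, 82.6 and 91.2 CPM in vitrified and 56.3, 74.4, 81.7 and 108 CPM in fresh libraries, below every 4 h library. The fall from 4 to 8 h was -1.78 ± 0.34 in vitrified and -1.63 ± 0.30 in fresh follicles. Per length, Pfkl held medians of 78.8 and 78.0% of the TPM of Pfkl and Pfkp in vitrified and fresh follicles at 0 h, 56.4 and 67.1% at 1 h, 41.1 and 51.4% at 4 h, and 92.3 and 89.5% at 8 h. The 7 shares of 8 h, from 88.0 to 93.0%, lay above all those of 4 h, from 29 to 61.3%. Pfkp overlaps Pitrm1 on the opposite strand by 748 exonic bases, and the kit does not mark strand.

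**Figure D2:**
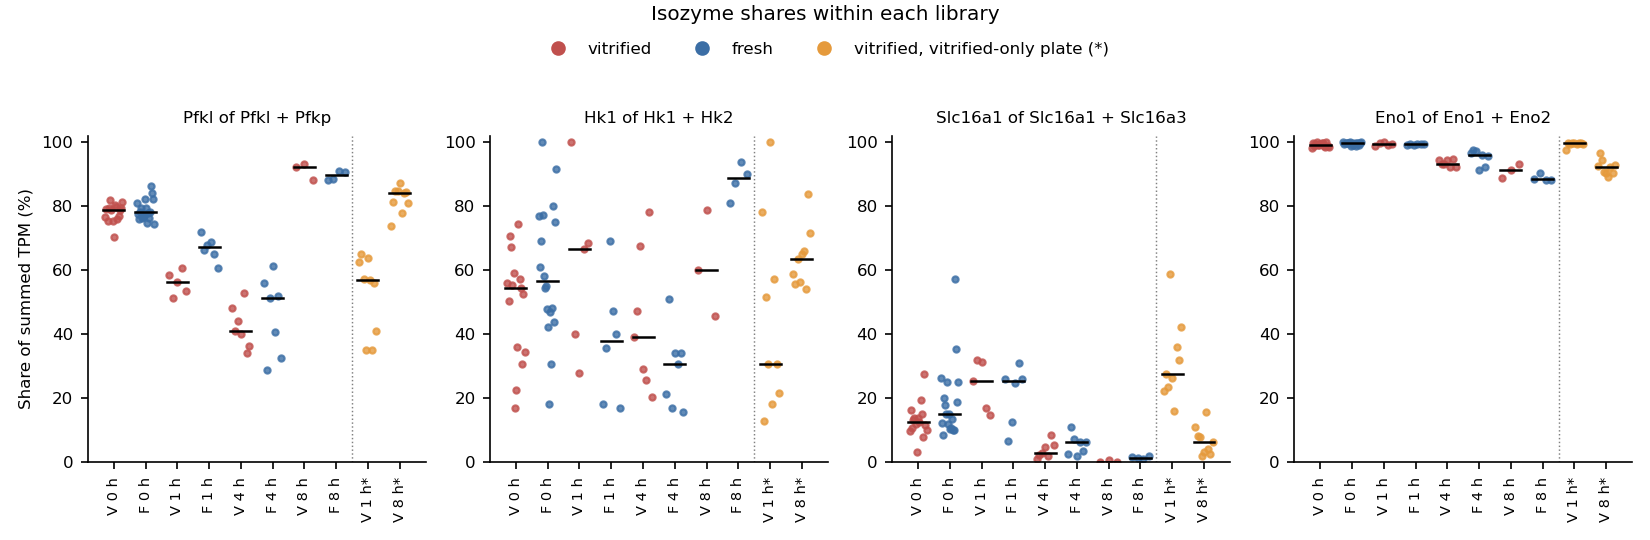
Share of the first gene in the summed TPM of a pair of related genes, in percent, for each library, with black lines at group medians and the vitrified-only plate to the right of the dotted line. Pfkl takes most of the pair at 8 h (medians 92.3% in vitrified and 89.5% in fresh follicles) and least at 4 h (41.1% and 51.4%). Eno1 is counted by its own row, without other rows that match its transcript closely.

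The other early enzymes fell to 4 h. Aldolase splits fructose bisphosphate, and Aldoc, its brain form, had 26.8, 31.9, 35.6, 42.4 and 47.6 CPM in vitrified and 20.5, 36.2 and 43.9 CPM in fresh follicles at 1 h. At 4 h it had 1.48, 3.40 and 9.92 CPM in vitrified and 1.09, 2.11 and 4.38 CPM in fresh follicles. It stayed low at 8 h, with 1.97, 2.07 and 8.77 CPM in vitrified and 1.78, 1.84, 2.58 and 3.91 CPM in fresh libraries. The fall to 4 h was -3.03 ± 0.39 in vitrified and -3.62 ± 0.41 in fresh follicles, with no overlap between 1 h and 4 h libraries of the shared plate. Aldoa, the muscle form and at least 98.5% of the pair's TPM in every group median, moved less, by -0.67 ± 0.13 and -0.51 ± 0.13. Gpi1, which turns glucose 6-phosphate into fructose 6-phosphate, changed by -0.83 ± 0.23 in vitrified and -0.97 ± 0.22 in fresh follicles. Tpi1, which interconverts the triose phosphates, changed by -1.13 ± 0.24 and -1.23 ± 0.24. From 4 to 8 h Gpi1 and Tpi1 rose in vitrified follicles (1.23 ± 0.26 and 1.00 ± 0.28), and in fresh ones had 0.57 ± 0.24 and 0.60 ± 0.26 without a call. The vitrified Tpi1 call was lost without vitrified 8 h replicate 3 (0.77, adjusted p = 0.0554), as was that of Aldoa (0.40 with it, 0.36 and adjusted p = 0.119 without it).

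Among the payoff enzymes, Eno2, the neuronal enolase, had 2.17, 6.12, 12.6, 14.9 and 23.4 CPM in vitrified and 6.2, 9.23 and 10.9 CPM in fresh follicles at 1 h. By 4 h it had 17.5, 45.9 and 70.3 CPM in vitrified and 14.4, 24.7 and 65.9 CPM in fresh follicles. At 8 h it had 79.6, 88.3 and 113 CPM in vitrified and 60.3, 70.2, 85.1 and 90.8 CPM in fresh libraries, above every 1 h library. From 1 to 8 h it rose by 2.97 ± 0.61 in vitrified and 3.10 ± 0.57 in fresh follicles. The step from 4 to 8 h alone was called in fresh follicles (1.25 ± 0.51, adjusted p = 0.0462), a call lost without any 1 of the 4 fresh libraries (1.16 to 1.33). Per length, the own row of Eno1, the form of most cells, still held medians of 91.1 and 88.3% of the pair's TPM in vitrified and fresh follicles at 8 h, against 99.3 and 99.2% at 1 h. Other rows that match the Eno1 transcript closely held a median of 84.1% of its summed counts, as described below. They are left out of this share, which therefore understates Eno1 beside Eno2.

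Of the other payoff enzymes, Pgam1, which moves the phosphate of phosphoglycerate, rose to 4 h by 0.90 ± 0.20 in vitrified and 0.86 ± 0.19 in fresh follicles. Pkm, the pyruvate kinase of most tissues outside liver, changed by -0.59 ± 0.18 and -0.46 ± 0.17, and Eno1 by -1.40 ± 0.21 and -0.90 ± 0.21. Pgk1, which makes the first ATP of the payoff phase, was not called in that step, at -0.25 ± 0.25 and -0.41 ± 0.24. From 4 to 8 h Pgk1, Eno1 and Pkm rose in vitrified follicles (0.83 ± 0.28, 0.69 ± 0.25 and 0.67 ± 0.20) and were not called in fresh ones. Without vitrified 8 h replicate 3 the first 2 calls were lost, with Pgk1 at 0.32 and Eno1 at 0.66.

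These rows do not hold all reads of their genes. For 10 members the table has other rows whose transcripts match them at 97% identity over at least 300 bases. Such rows held a median of 88.7% of the summed counts for Gapdh (44 rows), 84.1% for Eno1 (Eno1b and Gm4735), 63.0% for Bnip3l, 59.1% for Bnip3 and 47.6% for Pgk1. The counting of reads with several matching genes is not given here. Group medians of that share ran from 83.2 to 85.7% for Eno1, 60.5 to 66.0% for Bnip3l, 85.9 to 89.7% for Gapdh and 24.4 to 96.7% for Bnip3. The own row of Gapdh was thus a small part that differed between groups. Summed with those rows, Gapdh moved from 0.93 to 0.68 for vitrified minus fresh at 8 h. Between plates at 8 h it moved from -1.04 to -0.61, and both kept their calls. Its fresh calls from 0 to 1 h and from 1 to 4 h were lost. In vitrified follicles of the shared plate the sum was called lower from 4 to 8 h (-0.48) and from 1 to 8 h (-0.50), where the own row was not called.

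**Figure D3:**
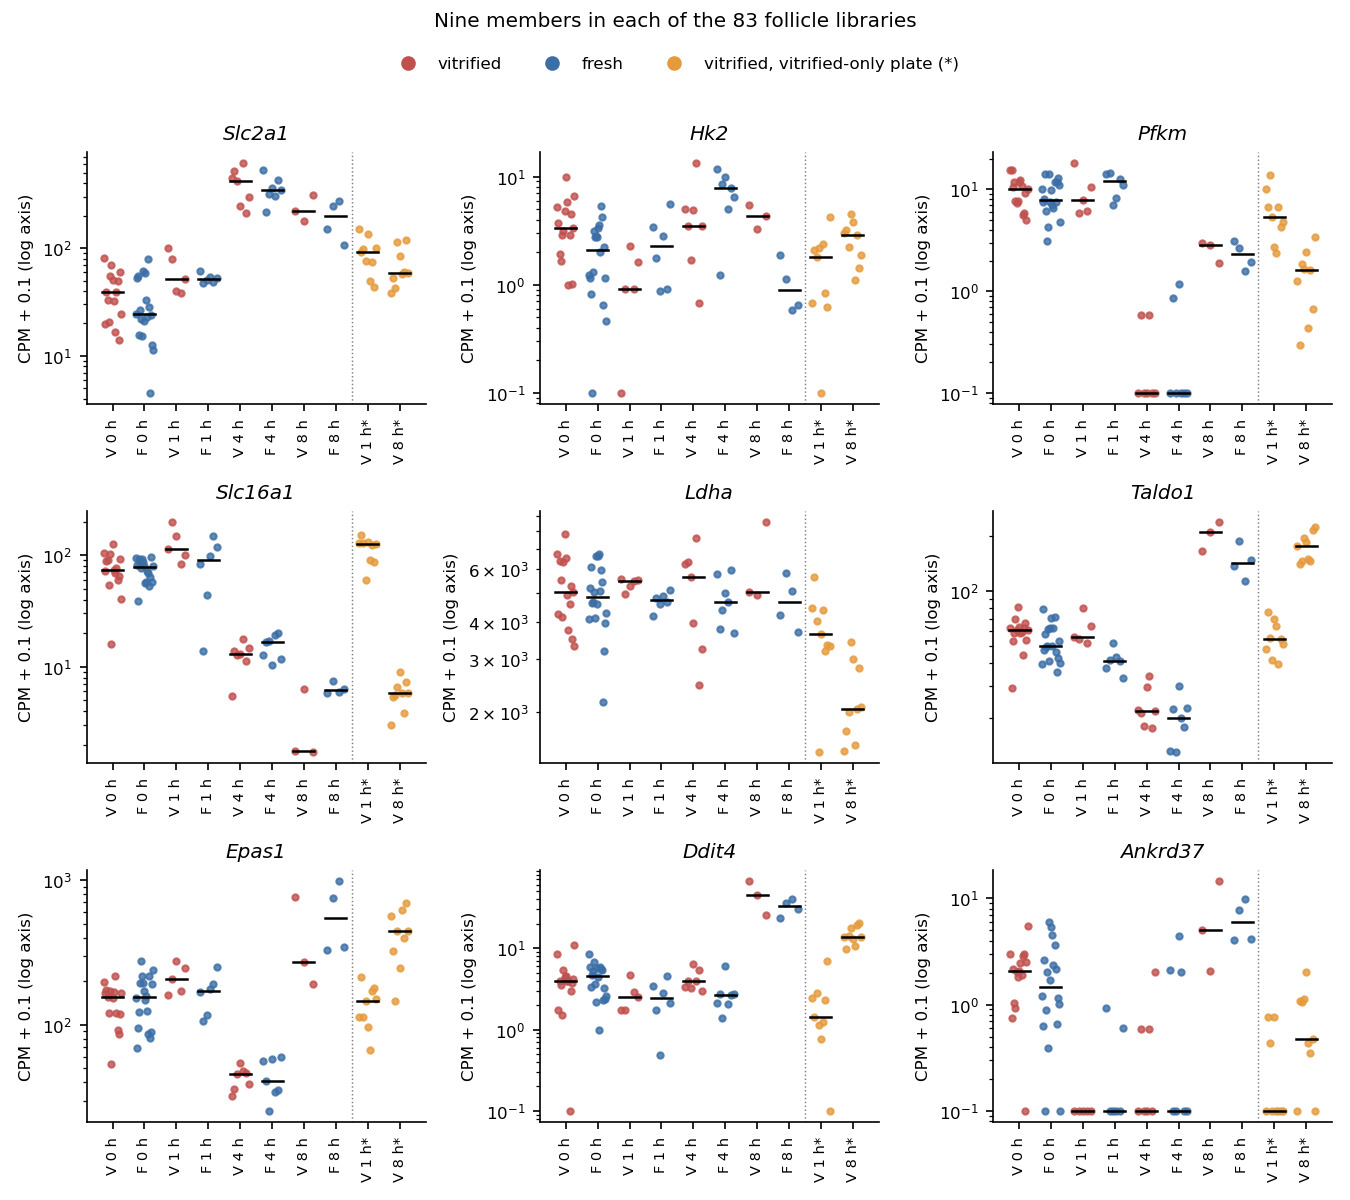
CPM of 9 members in each of the 83 libraries, with 0.1 added and a log axis, vitrified left of fresh at each time, black lines at the medians and the vitrified-only plate to the right of the dotted line. Slc2a1 is highest at 4 h (medians 420 and 345 CPM in vitrified and fresh follicles), where Pfkm is at 0 in most libraries, and Ddit4 is highest at 8 h on the shared plate.

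Lactate dehydrogenase was nearly all of the A type, which favours lactate, and edgeR called no step of that gene within the shared plate. Ldha had 4946, 5263, 5474, 5502 and 5565 CPM in vitrified and 4169, 4724 and 5102 CPM in fresh follicles at 1 h. It had 2473, 5630 and 7597 CPM in vitrified and 3659, 4652 and 5946 CPM in fresh follicles at 4 h. It had 4912, 5011 and 8559 CPM in vitrified and 3686, 4198, 5078 and 5811 CPM in fresh libraries at 8 h. The ranges of the 2 kinds overlapped at every time, at 1 h by 1 vitrified library. The 8 h against 1 h difference was 0.20 ± 0.28 in vitrified and 0.00 ± 0.25 in fresh follicles. In TPM, which carry no TMM scaling, Ldha averaged 1155 ± 332 at 4 h and 2231 ± 342 at 8 h in vitrified follicles of that plate (SD, n = 7 and 3), and 1110 ± 247 and 1863 ± 252 in fresh follicles (SD, n = 7 and 4). On the vitrified-only plate Ldha fell from 1 to 8 h (-0.73 ± 0.18, edgeR adjusted p = 0.00032), with 1491, 2046 and 3413 CPM at 8 h and 1475, 3638 and 5629 CPM at 1 h. With total counts alone that difference was 0.07 and with limma on log2(TPM + 1) 0.34, neither called. Per length, Ldha held medians of 97 to 99.5% of the TPM of both genes in the 10 groups.

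Ldhb, the heart form, which favours pyruvate, fell. It had 81.7, 106, 135, 138 and 170 CPM in vitrified and 129, 174 and 212 CPM in fresh follicles at 1 h, and 18.1, 31.5 and 44.3 CPM and 21.6, 40.7 and 50.0 CPM at 4 h. At 8 h it had 29.2, 38.1 and 45.6 CPM in vitrified and 23.9, 25.8, 28.7 and 33.7 CPM in fresh libraries. Every 1 h library stood above every later one on that plate. The fall to 4 h was -2.05 ± 0.24 in vitrified (edgeR adjusted p = 9e-12) and -2.22 ± 0.23 in fresh follicles (1.14e-13), and the next step was called in neither.

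The Ldha promoter with the most matches, on chromosome 7 (chr7:46845554-46845853, plus strand, GRCm38.p6, RefSeq), is shown because Ldha has the highest lactate dehydrogenase level and no edgeR call between times on the shared plate. Capitals again mark ACGTG or GCGTG on either strand:
Ldha: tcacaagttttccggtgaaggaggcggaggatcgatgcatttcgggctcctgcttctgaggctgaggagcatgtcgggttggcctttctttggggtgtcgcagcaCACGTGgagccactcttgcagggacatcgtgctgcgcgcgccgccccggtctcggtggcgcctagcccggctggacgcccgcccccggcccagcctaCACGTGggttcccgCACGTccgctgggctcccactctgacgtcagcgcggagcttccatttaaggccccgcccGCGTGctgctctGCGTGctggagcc
It held 7 matches, counted by strand, so that the letters CACGTG count on both. It was also the 1 member promoter with TGACGTCA, the motif of cAMP response element binding proteins, which 1.79% of the 32841 promoters hold and which stands here in lower case, overlapping no capitals.

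Monocarboxylate transporters carry lactate and pyruvate across the membrane, and the pair parted. Slc16a1 (MCT1) had 83.2, 99.9, 113, 149 and 196 CPM in vitrified and 13.6, 90.4 and 150 CPM in fresh follicles at 1 h. At 4 h the gene had 5.40, 12.9 and 17.5 CPM in vitrified and 10.3, 16.7 and 19.9 CPM in fresh follicles. By 8 h it had 1.62, 1.66 and 6.17 CPM in vitrified and 5.69, 5.87, 6.26 and 7.36 CPM in fresh libraries. It fell in each step and each kind, with log2 fold changes to 4 h of -3.34 ± 0.32 in vitrified and -2.46 ± 0.31 in fresh follicles and to 8 h of -1.87 ± 0.44 and -1.26 ± 0.37. The fresh call from 4 to 8 h was lost with total counts alone and in limma on log2(TPM + 1). The vitrified call of that step was lost in the same limma fit. Over both steps the change was -5.22 ± 0.50 in vitrified (edgeR adjusted p = 6.07e-15) and -3.72 ± 0.40 in fresh follicles (5.33e-13). Slc16a3 (MCT4), known for lactate export from glycolytic cells, had group medians of 255 and 187.4 CPM in vitrified and fresh follicles at 1 h, 267.9 and 177 CPM at 4 h and 481 and 293.4 CPM at 8 h, and no step within the shared plate was called. Slc16a1 thus went to medians of 0.211 and 1.41% of the pair's TPM at 8 h in vitrified and fresh follicles, against 25.4% in both at 1 h.

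Of the pair of bifunctional enzymes that set fructose 2,6-bisphosphate, the activator of phosphofructokinase, 1 rose late. It was Pfkfb4, which rose from 4 to 8 h by 1.28 ± 0.42 in vitrified and 2.15 ± 0.40 in fresh follicles, to medians of 7.88 and 14.9 CPM. The vitrified call was lost without vitrified 8 h replicate 1 (0.77, adjusted p = 0.206). Pfkfb3, the strongly activating form, was not called in any step within the shared plate, with group medians of 6.77 to 16.1 CPM there.

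Pyruvate dehydrogenase kinases keep pyruvate out of the mitochondrial cycle. Pdk1 had 8.67, 12.6, 16.1, 18.6 and 19.8 CPM in vitrified and 14.1, 18.6 and 23.3 CPM in fresh follicles at 1 h. It dropped to 0, 1.94 and 4.32 CPM in vitrified and 0.380, 2.52 and 4.90 CPM in fresh follicles at 4 h. At 8 h the gene had 4.56, 7.75 and 11.2 CPM in vitrified and 1.96, 4.65, 5.34 and 5.87 CPM in fresh libraries. The fall to 4 h was -2.88 ± 0.45 in vitrified and -2.93 ± 0.43 in fresh follicles, and the later rise was called in vitrified follicles (1.97 ± 0.50) and not in fresh ones (0.97 ± 0.49, adjusted p = 0.114). The difference between these 2 steps did not pass. Pdk3 fell to 4 h (-1.27 ± 0.22 in vitrified and -1.38 ± 0.22 in fresh follicles) and rose to 8 h (1.19 ± 0.25 and 1.46 ± 0.24).

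In the pentose phosphate pathway the non-oxidative enzyme Taldo1 (transaldolase) changed most. It had 51.7, 54.6, 55.6, 63.6 and 80.2 CPM in vitrified and 33.1, 41.3 and 51.7 CPM in fresh follicles at 1 h, and 17.5, 21.8 and 34 CPM and 13, 19.9 and 29.9 CPM at 4 h. At 8 h it had 166, 209 and 236 CPM in vitrified and 113, 137, 147 and 187 CPM in fresh libraries. All 7 of these stood above every library of any earlier time. The rise from 4 to 8 h was 3.11 ± 0.21 in vitrified (edgeR adjusted p = 5.05e-22) and 2.87 ± 0.20 in fresh follicles (3.35e-21), after a fall to 4 h (-1.38 ± 0.19 and -1.05 ± 0.19).

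Tkt (transketolase), its partner in the non-oxidative branch, fell instead. It had 207, 274, 290, 307 and 350 CPM in vitrified and 287, 329 and 388 CPM in fresh follicles at 1 h. The 4 h libraries had 96.7, 140 and 150 CPM in vitrified and 136, 255 and 316 CPM in fresh follicles. At 8 h it had 94.5, 124 and 171 CPM in vitrified and 119, 136, 167 and 178 CPM in fresh libraries. From 1 to 8 h the change was -1.14 ± 0.23 in vitrified and -1.15 ± 0.20 in fresh follicles. In vitrified follicles nearly all of it fell before 4 h (-1.15 ± 0.17), and in fresh ones it came in parts (-0.39 ± 0.17 to 4 h and -0.76 ± 0.19 to 8 h). The fresh call to 4 h was lost with total counts alone, without the filter on low counts and in limma on log2(TPM + 1). That to 8 h was lost with total counts alone and stood at 0.05 in limma. From 1 to 8 h the fresh call was lost in limma and the vitrified call in limma and with total counts alone.

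In the oxidative branch, which makes NADPH, G6pdx, its first and rate-limiting enzyme, changed to 4 h by -0.81 ± 0.19 in vitrified and -0.89 ± 0.19 in fresh follicles. From 4 to 8 h it rose in vitrified follicles (0.62 ± 0.22, lost without vitrified 8 h replicate 3 at adjusted p = 0.0552) and had 0.46 ± 0.21 in fresh ones. Pgd, the second dehydrogenase, rose to 8 h by 1.32 ± 0.22 in vitrified and 0.57 ± 0.21 in fresh follicles, the fresh call being lost without fresh 8 h replicate 1 (0.48, adjusted p = 0.105). G6pdx overlaps Ikbkg on the opposite strand by 418 exonic bases.

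The 2 HIF alpha subunits moved in opposite directions from 1 to 4 h and from 4 to 8 h. Epas1 (HIF-2 alpha), known best from endothelium, had 160, 170, 207, 247 and 274 CPM in vitrified and 107, 172 and 250 CPM in fresh follicles at 1 h. At 4 h it had 32.4, 45.4 and 54.0 CPM in vitrified and 25.4, 41.0 and 60.2 CPM in fresh follicles, below every library of the other times apart from those of 0 h, the lowest of which had 53.5 CPM. By 8 h it had 192, 273 and 757 CPM in vitrified and 329, 344, 747 and 977 CPM in fresh libraries. It fell to 4 h (-2.30 ± 0.32 in vitrified and -1.92 ± 0.31 in fresh follicles) and rose to 8 h by 3.24 ± 0.35 (edgeR adjusted p = 3.63e-12) and 3.75 ± 0.34 (2.1e-15). The 6 endothelial markers together were at medians of 0.00240 and 0.00180% of counts at 8 h and 0.000760 and 0.000834% at 4 h in vitrified and fresh follicles, and Cdh5 was at 0 in no library, Egfl7 in 3, Cldn5 in 12, Pecam1 in 23, Emcn in 35 and Tek in 71 of 83. Their part in the Epas1 values was not tested.

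Hif1a (HIF-1 alpha) rose to 4 h by 1.38 ± 0.22 in vitrified and 1.51 ± 0.21 in fresh follicles, with medians of 3716 and 3441 CPM, and fell to 8 h (-0.93 ± 0.26 and -0.76 ± 0.23). The vitrified fall lost its call without vitrified 8 h replicate 3 (-0.58, adjusted p = 0.124), and both lost it with total counts alone (-0.29 and -0.13). From 1 to 8 h Hif1a, like Epas1, was higher in fresh follicles (0.75 ± 0.23, lost without fresh 8 h replicate 2 at 0.49) and on the vitrified-only plate (0.97 ± 0.17), and was not called in vitrified follicles of the shared plate (0.45 ± 0.26). Per length, Hif1a held medians of 99.3 and 99.4% of the TPM of both subunits at 4 h and 89.8 and 88.4% at 8 h, vitrified and fresh. Hif1a overlaps Gm15283 on the opposite strand by 330 exonic bases. Egln3, a hydroxylase that HIF itself raises, rose from 4 to 8 h in vitrified follicles (1.46 ± 0.59) but not without vitrified 8 h replicate 3 (0.50, adjusted p = 0.635), and was not called in fresh ones.

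Of the 5 listed targets of HIF, 4 rose from 4 to 8 h in each kind of follicle, beside 22% of all tested genes in vitrified and 20.8% in fresh follicles. Bnip3 was 1 of these 4 by its own row only, and its sum with near-identical rows was not called in that step. Ddit4 (REDD1), which restrains mTOR under stress, had 1.63, 1.65, 2.39, 2.83 and 4.60 CPM in vitrified and 0.389, 2.37 and 4.50 CPM in fresh follicles at 1 h. By 4 h it had 2.90, 3.88 and 6.29 CPM in vitrified and 1.30, 2.56 and 5.99 CPM in fresh follicles. At 8 h the gene had 25.8, 44.9 and 65.9 CPM in vitrified and 23.1, 30.4, 35.9 and 40.1 CPM in fresh libraries, above all others of the shared plate and of 0 h. The rise to 8 h was 3.44 ± 0.40 in vitrified (edgeR adjusted p = 2.28e-11) and 3.54 ± 0.40 in fresh follicles (8.35e-12).

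Ankrd37, a small ankyrin repeat protein and known HIF-1 target, was at 0 in all 5 vitrified libraries of 1 h on the shared plate and had 0, 0 and 0.831 CPM in fresh follicles. At 4 h the gene had 0, 0 and 1.93 CPM in vitrified and 0, 0 and 4.36 CPM in fresh follicles. By 8 h it had 1.97, 4.98 and 14.3 CPM in vitrified and 3.92, 4.05, 7.62 and 9.78 CPM in fresh libraries. Before hCG it was present too, at 0, 1.96 and 5.34 CPM in vitrified and 0, 1.37 and 5.83 CPM in fresh follicles. The rise from 4 to 8 h was 3.96 ± 0.83 in vitrified and 2.35 ± 0.72 in fresh follicles. Its call from 1 to 4 h in vitrified follicles, against a group at 0, was lost without any 1 of the 5 vitrified 1 h libraries (edgeR adjusted p from 0.0594 to 0.0768). In vitrified follicles the pooled level of 8 h, 7.11 CPM, was at least 39.9-fold higher than at 1 h, taking 3 counts over that group (0.178 CPM) as the floor.

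Bnip3l (NIX), a mitophagy receptor, fell to 4 h (-0.93 ± 0.27 in vitrified and -1.43 ± 0.27 in fresh follicles) and rose to 8 h (1.47 ± 0.31 and 1.18 ± 0.29). Vegfa, the vascular growth factor, had group medians of 0.884 to 5.5 CPM over all 10 groups and was not called in any fresh step. In vitrified follicles it fell to 4 h (-1.62 ± 0.52), a call that rested on vitrified 1 h replicate 4 (-0.91 and adjusted p = 0.172 without it).

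Bnip3, the related mitophagy receptor, is a case apart. Its own row had 176, 224, 241, 259 and 459 CPM in vitrified and 240, 299 and 368 CPM in fresh follicles at 1 h, 8.17, 78.7 and 148 CPM and 16.4, 61.9 and 117 CPM at 4 h, and 243, 449 and 702 CPM and 167, 244, 373 and 438 CPM at 8 h. It fell to 4 h (-1.85 ± 0.47 in vitrified and -2.34 ± 0.46 in fresh follicles) and rose to 8 h (2.63 ± 0.52 and 2.39 ± 0.50). A second row, AC160336.1, matches its transcript at 98.3% over 858 bases. With near-identical rows, the copies held medians of 65.8 and 63.0% of the sum at 1 h, 94.9 and 96.7% at 4 h and 52.2 and 69.8% at 8 h, vitrified and fresh. The sum went the other way from the own row, rising to 4 h by 1.12 ± 0.32 in vitrified and 1.07 ± 0.30 in fresh follicles, with -0.80 ± 0.38 and -0.79 ± 0.34 to 8 h, not called. The direction for Bnip3 is therefore uncertain.

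Promoters of the 2 targets with the clearest late rise are shown, both on the minus strand of GRCm38.p6 (RefSeq), at chr8:45999801-46000100 for Ankrd37 and chr10:59951721-59952020 for Ddit4. They are printed 5′ to 3′ in the direction of the gene, with ACGTG or GCGTG on either strand in capitals:
Ankrd37: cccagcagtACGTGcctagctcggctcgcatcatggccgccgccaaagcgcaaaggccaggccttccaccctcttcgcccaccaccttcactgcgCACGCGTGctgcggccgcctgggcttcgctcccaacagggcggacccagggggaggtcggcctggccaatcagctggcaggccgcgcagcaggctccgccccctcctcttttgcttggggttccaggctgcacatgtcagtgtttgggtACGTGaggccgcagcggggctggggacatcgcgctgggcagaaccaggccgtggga
Ddit4: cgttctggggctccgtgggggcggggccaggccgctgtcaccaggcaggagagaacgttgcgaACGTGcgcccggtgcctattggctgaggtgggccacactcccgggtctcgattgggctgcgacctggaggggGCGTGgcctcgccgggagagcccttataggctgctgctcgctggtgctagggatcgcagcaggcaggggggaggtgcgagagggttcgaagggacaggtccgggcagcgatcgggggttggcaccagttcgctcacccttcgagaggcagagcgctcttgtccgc
Ankrd37 held 4 matches and Ddit4 held 2. Whether the number of matches goes with the changes was not tested.

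Vitrified and fresh follicles differed in few members when compared at the same time. At 0 h and at 1 h no member was called, beside 0.967% and 0.555% of all tested genes, and among all genes 1305 and 1227 had an unadjusted p under 0.05 in edgeR. At 4 h 1 member of 37 was called, beside 0.118% of all genes, and at 8 h 1 member, beside 2.06%. The call at 4 h was Tkt, at 128.7 CPM on average in vitrified and 254.2 CPM in fresh follicles (-0.98 ± 0.16, edgeR adjusted p = 0.000201). Of the 7 fresh libraries only the lowest, at 136 CPM, lay within the vitrified range of 96.7 to 150 CPM.

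The call at 8 h was Gapdh, which oxidizes glyceraldehyde 3-phosphate. It had 371, 474 and 597 CPM in vitrified and 215, 236, 267 and 290 CPM in fresh libraries, which do not overlap (0.93 ± 0.20, adjusted p = 0.00324). The call was lost without vitrified 8 h replicate 3 (0.77, adjusted p = 0.101), with only these 7 libraries in the fit (0.87), in limma on log2(TPM + 1) (0.81, adjusted p = 0.0562) and with plates pooled (0.23), and it held when the near-identical rows were added. Earlier values of Gapdh were 513, 536, 546, 552 and 633 CPM in vitrified and 419, 447 and 509 CPM in fresh follicles at 1 h, and 440, 599 and 727 CPM and 527, 577 and 678 CPM at 4 h. Its step from 4 to 8 h was -0.28 ± 0.19 in vitrified and -1.21 ± 0.18 in fresh follicles, a difference of 0.93 (adjusted p = 0.0405) beside 0.993% of all genes called in that test. That difference lost its call without any 1 of 5 libraries (fresh 8 h replicates 1, 2 and 4, and vitrified 8 h replicates 1 and 3; 0.78 to 0.96) and with the near-identical rows added (0.61, adjusted p = 0.304). With those rows added, Gapdh was called lower from 4 to 8 h in both kinds, at -0.48 in vitrified and -1.09 in fresh follicles. For the steps to 1 h and to 4 h no member differed between the 2 kinds, beside 0.160% and 0.0421% of all genes, with 875 and 781 genes at an unadjusted p under 0.05.

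At 8 h 30 of the 37 members lay higher in vitrified than in fresh follicles of the shared plate, with a median of 0.42 against 0.10 over all tested genes. Of the 37, 1 was called, and the share of all genes that lay higher was not counted. All 38 members summed to 3.89, 3.92 and 4.07% of counts in the 3 vitrified libraries and 2.80 to 3.61% in the 4 fresh ones. The vitrified-only plate holds no fresh library, so it cannot show whether the 2 kinds differ. Its 9 vitrified libraries of 8 h had 1.53, 1.93 and 2.60%, below both kinds on the shared plate. With plates pooled, which adds these libraries to the vitrified side alone, the median for vitrified minus fresh at 8 h was -0.30.

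**Figure D4:**
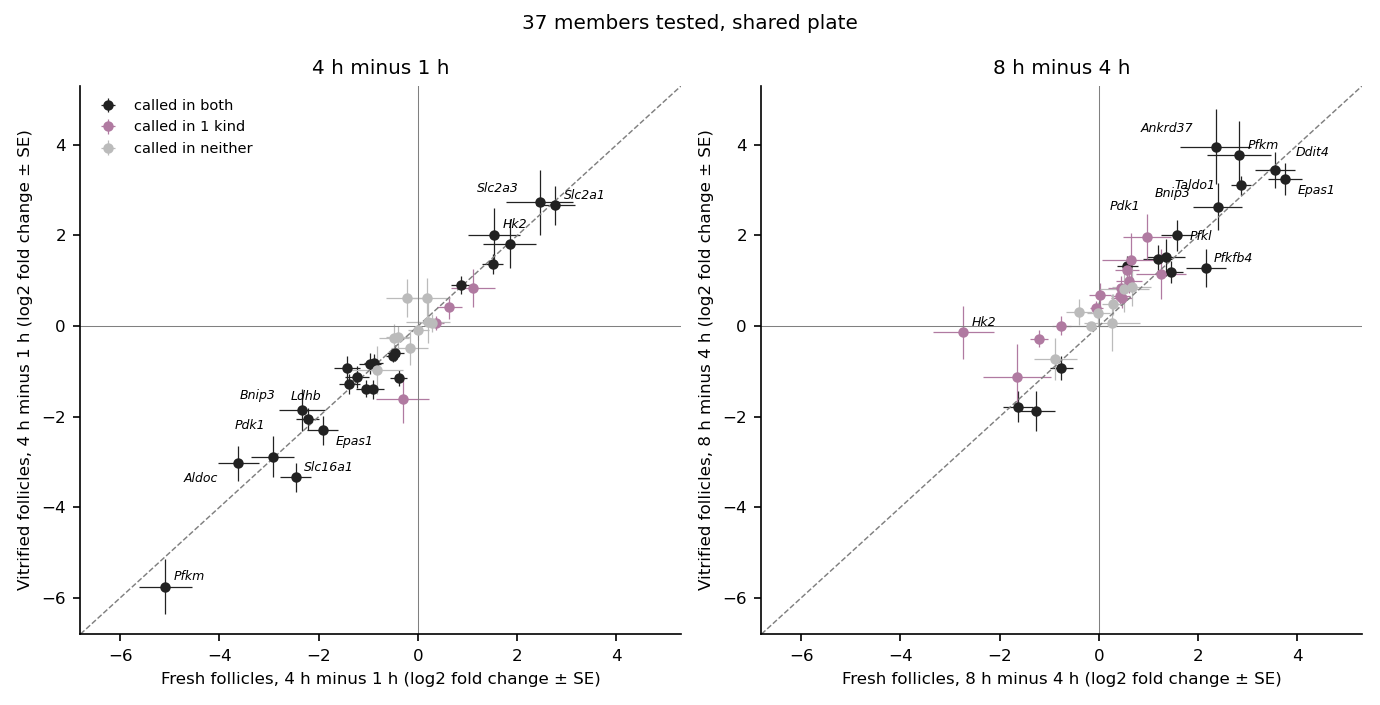
Log2 fold change (± SE) of the tested members in fresh follicles (horizontal) against vitrified follicles (vertical) for 4 h minus 1 h and 8 h minus 4 h on the shared plate, with genes past 1.9 named, Bnip3 by its own row, and Ankrd37 left out of the first panel because all vitrified 1 h libraries were at 0. For 4 h minus 1 h 23 members were called in the same direction in both kinds (6 higher, 17 lower). For 8 h minus 4 h 15 were (12 higher, 3 lower), and in neither step was a member called in opposite directions. The share of all tested genes called in both kinds was not counted, so whether members differ from other genes in this was not tested. Aldoc in the second panel has no vertical bar because its fold change is 0.00.

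More members were called between plates, within vitrified follicles of 8 h, than between vitrified and fresh follicles at any time. At 8 h, 2 members were higher and 20 lower on the vitrified-only plate than in vitrified follicles of the shared plate, beside 10.3% and 13.1% of all genes, and the members' median was -0.99 against -0.10. All 6 listed enzymes of lower glycolysis and 6 of 9 of upper glycolysis were lower. Ldha had 1491, 2046 and 3413 CPM on the vitrified-only plate and 4912, 5011 and 8559 CPM on the shared plate (-1.46 ± 0.24, edgeR adjusted p = 2.02e-06). Slc2a1 had 38.2, 58.1 and 118 CPM against 180, 218 and 311 CPM (-1.77 ± 0.41), and Pfkl 29, 68.2 and 148 CPM against 194, 367 and 370 CPM (-1.94 ± 0.32). None of these 3 pairs of ranges overlap. Slc16a3 had a median of 52.5 CPM against 481 CPM (-2.54 ± 0.48).

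Of the 5 listed HIF targets 4 were lower, beside 13.1% of all tested genes, and Vegfa was not called (-1.27 ± 0.59, edgeR adjusted p = 0.109). Bnip3 was among the 4 by its own row (0.17 summed with near-identical rows). Ddit4 had 9.80, 13.8 and 20.1 CPM on the vitrified-only plate against 25.8, 44.9 and 65.9 CPM on the shared plate (-1.63 ± 0.35), and Ankrd37 0, 0.376 and 1.94 CPM against 1.97, 4.98 and 14.3 CPM (-3.31 ± 0.66). Aldoc changed by -2.45 ± 0.49. Without vitrified 8 h replicate 3, which leaves 2 libraries on the shared plate, Ankrd37 (-2.24), Aldoc (-1.34), Bnip3l (-0.67) and Pgk1 (-0.86) lost their calls, and 15 members in all were called. Pfkp lost its call without any 1 of the 3 shared-plate libraries (-0.76 to -0.88), Pgd without replicate 2 or 3 (-0.58 and -0.61) and Eno2 without replicate 1 (-1.52). The own row of Bnip3 changed by -2.40 ± 0.49, and the sum with its near-identical rows by 0.17 ± 0.35, not called. The higher members were Pfkfb3, with medians of 47.9 CPM against 16.1 CPM (1.67 ± 0.42), and Hif1a (0.66 ± 0.25), whose call was lost without vitrified 8 h replicate 1 or 3 (0.68 and 0.33).

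Some members kept to the time course on both plates. From 1 to 8 h on the vitrified-only plate 11 members rose and 16 fell, beside 32% and 27.4% of all genes. Taldo1 rose by 1.66 ± 0.15 on the vitrified-only and 1.74 ± 0.22 on the shared plate, Epas1 by 1.63 ± 0.26 and 0.94 ± 0.38, Ddit4 by 2.73 ± 0.35 and 4.08 ± 0.45, and Hk1 by 1.94 ± 0.36 and 2.37 ± 0.45. Slc16a1 fell on both (-4.30 ± 0.28 and -5.22 ± 0.50). Of the 5 listed HIF targets, Ddit4 was the 1 called higher on the vitrified-only plate. Vegfa fell on that plate (-1.65), as did Bnip3 by its own row (-1.77, and -0.18 ± 0.25 without a call when summed with near-identical rows). Together the 5 targets had medians of 0.0243% of counts at 1 h and 0.0158% at 8 h on that plate. Slc2a1, called on the shared plate (1.94 ± 0.48), was not called on the vitrified-only plate, where its 1 h libraries had 43.0, 92.8 and 149 CPM. The Epas1 call on the shared plate was lost without vitrified 8 h replicate 1 (0.21), or 1 h replicate 1 or 4 (0.85 and 0.87). With total counts alone the vitrified-only plate had 19 higher and 7 lower, and the shared plate, with 12 and 8 by TMM (26.2% and 23.9% of all genes), had 26 and 4. Fresh follicles had 12 higher and 10 lower for 8 h against 1 h (26.2% and 23.5% of all genes), and 18 and 6 with total counts alone.

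At 1 h the plates differed less. Of 37 members 4 were lower and none higher on the vitrified-only plate, beside 1.08% and 0.294% of all genes. They were Tpi1 (-0.84 ± 0.23), Eno1 (-0.80 ± 0.20), Pkm (-0.64 ± 0.17) and G6pdx (-0.70 ± 0.18). Leaving out single vitrified 1 h libraries left 1 to 4 calls, with 1 left without replicate 4 and 2 left without replicate 1 or 5.

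**Figure D5:**
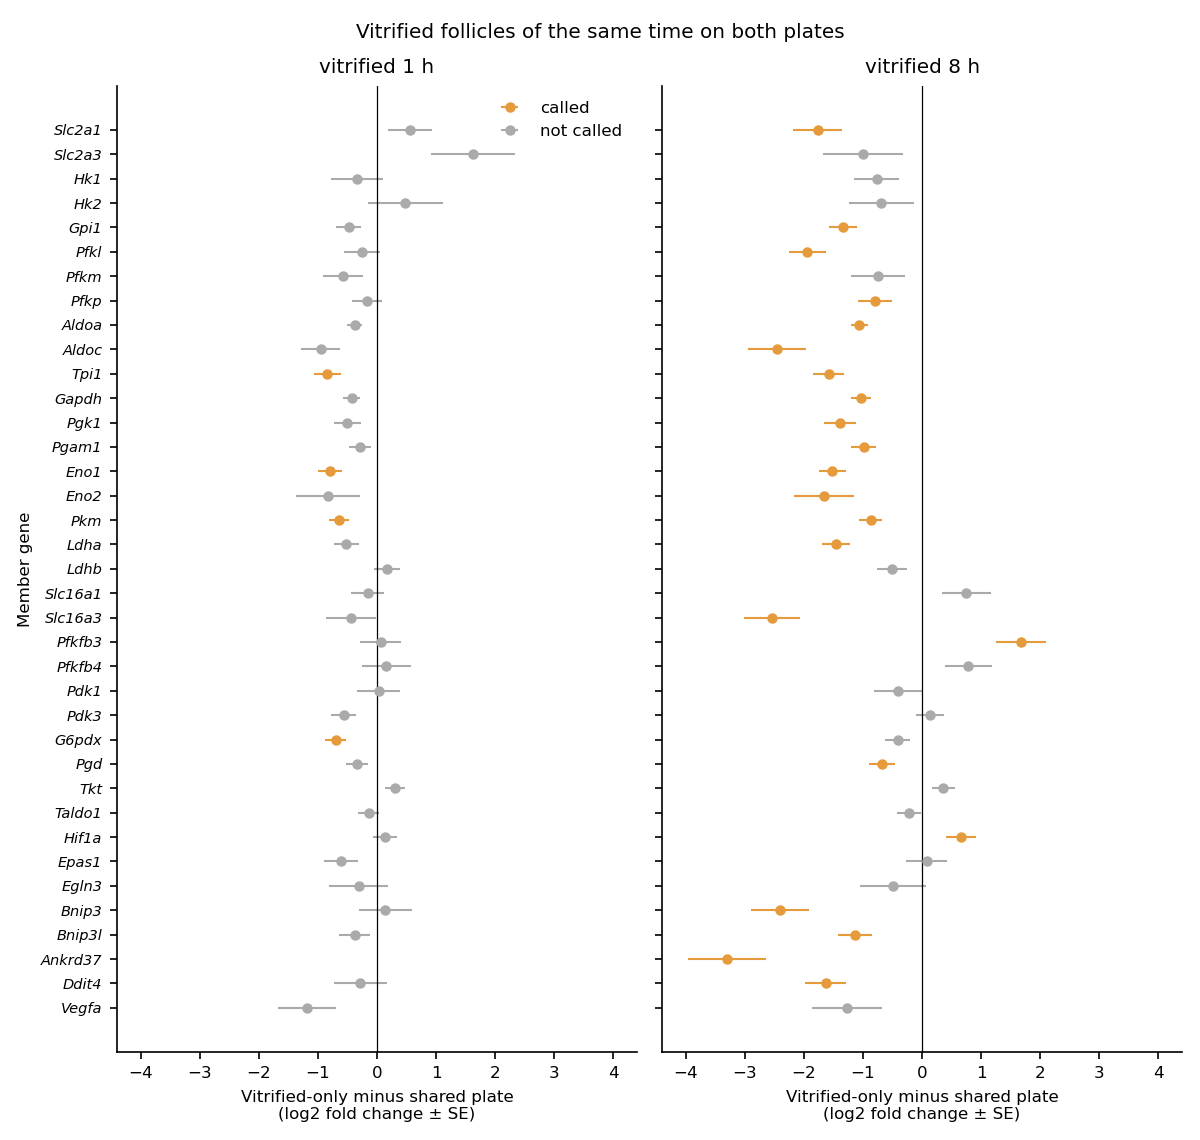
Log2 fold change (± SE) of the members between vitrified follicles of the vitrified-only and the shared plate, at 1 h (left, without Ankrd37, at 0 in all vitrified libraries of the shared plate) and 8 h (right), with called members in orange and Bnip3 by its own row. At 8 h 20 members lie lower on the vitrified-only plate and 2, Pfkfb3 and Hif1a, lie higher, against 4 lower at 1 h.

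The step from 0 to 1 h cannot be told apart from a difference between plates, and its split depended on scaling. With TMM 7 members were higher and 8 lower at 1 h in vitrified follicles (21.5% and 22% of all genes), and 6 and 8 in fresh ones (19% and 23.1%). With total counts alone it was 1 higher and 21 lower in vitrified and 1 higher and 20 lower in fresh follicles, as the median of all tested genes moved to -0.65 and -0.60 from -0.05 and -0.11. Members lower under both included Pgam1 (-1.26 ± 0.19 in vitrified and -1.19 ± 0.17 in fresh follicles), Hk1 (-1.19 ± 0.37 and -1.23 ± 0.38) and Pfkl (-1.34 ± 0.30 and -0.94 ± 0.26). Egln3 was higher (2.37 ± 0.46 and 1.49 ± 0.41). Ankrd37, at 0 in all vitrified libraries of 1 h, had a pooled level of 1.91 CPM at 0 h in vitrified follicles.

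Neighbouring pathways, from lists of related genes outside the 38, were counted in the same fits. Over all tested genes 20.6% rose and 25.9% fell from 1 to 4 h in vitrified and 21.9% rose and 24.5% fell in fresh follicles, and from 4 to 8 h 22% rose and 15% fell in vitrified and 20.8% rose and 15.7% fell in fresh follicles. Of 17 genes of the citric acid cycle 2 rose and 9 fell from 1 to 4 h in vitrified follicles and 2 rose and 11 fell in fresh ones (medians -0.46 and -0.82, against -0.11 and -0.03 over all genes), led by the succinate dehydrogenase subunit Sdha (-1.95 ± 0.18 and -2.09 ± 0.18). From 4 to 8 h 12 rose and 1 fell in vitrified and 10 rose and none fell in fresh follicles, among them Sdhb (1.36 ± 0.21 and 1.53 ± 0.20). Of 12 genes around pyruvate dehydrogenase, 5 and 4 fell to 4 h in vitrified and fresh follicles and none rose, beside 25.9% and 24.5% of all genes that fell. Among them were Pcx, the carboxylase that feeds the cycle (-2.97 ± 0.58 and -2.92 ± 0.56), and Pdk2 (-2.14 ± 0.45 and -2.99 ± 0.46). Mpc2, a subunit of the mitochondrial pyruvate carrier, rose to 8 h by 3.34 ± 0.40 in vitrified and 2.81 ± 0.41 in fresh follicles.

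Of 23 other HIF targets tested, 12 rose and 3 fell from 4 to 8 h in vitrified follicles, and 5 rose and 2 fell in fresh ones, beside 22% and 15% of all genes in vitrified and 20.8% and 15.7% in fresh follicles. The fresh counts are near that background. Adm (adrenomedullin), a vasodilator peptide, had 4.86, 30.5 and 32.4 CPM in the 3 vitrified libraries of 8 h and medians of 29.6 CPM in fresh libraries, against medians of 1.11 and 0 CPM at 4 h. Angptl4, an inhibitor of lipoprotein lipase, rose by 2.73 ± 0.30 and 2.65 ± 0.28. Cox4i2, a cytochrome oxidase subunit of low oxygen, fell to 4 h (-4.81 ± 0.44 and -6.17 ± 0.51). Between plates at 8 h 1 of the 23 was higher and 12 lower on the vitrified-only plate, beside 10.3% and 13.1% of all genes, with Adm at -4.30 ± 0.60, Ndufa4l2 at -3.84 ± 0.54 and Cox4i2 at -3.72 ± 0.52. Ndufa4l2, a complex I associated protein, was also called in vitrified minus fresh at 8 h (2.15 ± 0.59, adjusted p = 0.0296).

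Of 11 glycogen genes tested, 2 rose and 4 fell to 4 h in vitrified and 3 and 3 in fresh follicles, near the shares of all genes (20.6% and 25.9%, and 21.9% and 24.5%), with the synthase Gys1 higher (1.97 ± 0.35 and 1.56 ± 0.34) and the liver phosphorylase Pygl lower (-1.08 ± 0.45 and -1.95 ± 0.49). Pgm1, which links glycogen to glycolysis, rose to 8 h by 2.65 ± 0.35 and 1.9 ± 0.33. Among 10 other glycolysis genes the transporter Slc2a8 fell to 4 h (-3.21 ± 0.34 and -3.64 ± 0.36) and rose to 8 h (2.52 ± 0.38 and 2.35 ± 0.40). Of 5 other pentose phosphate genes H6pd, the glucose dehydrogenase of the endoplasmic reticulum, rose to 4 h (1.95 ± 0.38 and 2.17 ± 0.37), and Prps2, which makes phosphoribosyl pyrophosphate, fell (-1.91 ± 0.45 and -2.26 ± 0.47). Of 9 other HIF regulators, Ep300, a HIF coactivator, rose to 4 h (1.79 ± 0.17 and 1.68 ± 0.16), and Vhl, which carries hydroxylated HIF to degradation, rose to 8 h (1.11 ± 0.31 and 1.25 ± 0.29), in vitrified and fresh follicles.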

How the data were processed

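RNA of single follicles was made into libraries with Smart-Seq2 and Nextera XT, which do not mark strand, and sequenced on a NextSeq, per the labels' protocols. The submitters' processing notes name Partek, Bowtie2, HISAT2, DESeq2 and the build mm10, without versions or roles. The authors deposited a table of estimated counts per gene, which need not be whole, and a table of log2 values, read here as log2(TPM + 1) and turned back to TPM to compare levels between genes. The handling of reads with several matching genes is not given here.

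The deposited estimated counts were rounded and tested with edgeR 4.0.16 (R 4.3.3, limma 3.58.1): TMM scaling, filterByExpr with a minimum count of 10, and the robust quasi-likelihood test in 1 model of all 83 libraries with 10 group means, the plates apart, over 18 comparisons. P-values were adjusted by Benjamini-Hochberg over the 11889 genes tested in each comparison, with a threshold of 0.05. The test was run first on simulated counts. Groups come from the labels, and plates were read from the prefixes of the library titles. Gm10800 took 4.02 to 53.0% of TPM.

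The members and lists were chosen with earlier results of these data known. By rule, 20 members are given by library: of those called with 1 sign in both kinds in a step of the shared plate, the 14 with the largest change in fresh follicles, plus sets of isozymes and members called between vitrified and fresh follicles. Of each other list, up to 4 called genes with the largest changes may be named. Near-identical rows were found with blastn 2.17.0 (97% identity over at least 300 bases). Alternatives were total counts alone, DESeq2's size factors, DESeq2 1.42.0, no filter on low counts, limma on log2(TPM + 1), that without Gm10800, fits of only the groups compared, 1 additive plate term, plates pooled, members summed with near-identical rows, and leaving out each library of groups of up to 5. Estimated counts carry counting error and more, and p-values rest on the spread between libraries.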

Additional observations from a re-analysis of the deposited data

Results flagged for a closer look

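Among 139 groups of 4 to 10 libraries examined for the 20 members given by library, 5 held a library far from the rest by Dixon's criterion, and chance flags about 1 in 20 such groups, or 7 here. Hk2 had 13.1 CPM in vitrified 4 h replicate 5, against 0.584 to 4.86 CPM in the other libraries of that group. Ankrd37 had 1.93 CPM in vitrified 4 h replicate 7, against 0 to 0.486 CPM. Ddit4 had 5.99 CPM in fresh 4 h replicate 4, against 1.30 to 2.66 CPM, and 6.82 CPM in vitrified 1 h replicate 13 of the vitrified-only plate, against 0 to 2.70 CPM. Tkt had 212 CPM in vitrified 1 h replicate 9 of that plate, against 339 to 401 CPM.

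The step of Gapdh from 4 to 8 h differed between vitrified and fresh follicles in a test of that difference (0.93 on the log2 scale, edgeR adjusted p = 0.0405). The values of Gapdh without single libraries and with its near-identical rows are given with the result above.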

How the results depend on the processing

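No paired analysis was possible because the labels give no replicate numbers that link vitrified and fresh follicles. Of 222 called results of single members, 187 kept direction and call with total counts alone (26 lost the call and 9 reversed), 219 with DESeq2's size factors, 221 in DESeq2, 205 without the filter, 192 of 206 with only the groups compared in the fit, 169 in limma (8 reversed), 180 in limma without Gm10800 (6 reversed), 210 with near-identical rows summed (5 reversed), 79 of 86 with 1 additive plate term and 70 of 86 with plates pooled (3 reversed). The summing and the limma fit without Gm10800 were chosen after seeing the data. Without vitrified 8 h replicate 3, 17 of 68 calls were lost, which leaves 2 libraries in that group.

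The reversals were these, and their cause was not tested. Total counts alone gave, for fresh 1 h minus 0 h, Gapdh -0.08 and G6pdx -0.04, for fresh 8 h minus 1 h Aldoa 0.07, for vitrified 1 h minus 0 h Gpi1 -0.02, G6pdx -0.10 and Tkt -0.17, for vitrified 8 h minus 1 h Eno1 0.03, and on the vitrified-only plate Gpi1 0.34 and Ldha 0.07. Limma gave Tkt 0.05 (fresh 8 h minus 4 h), Aldoa 0.19 (fresh 8 h minus 1 h), Eno1 0.23 (vitrified 8 h minus 1 h) and, on the vitrified-only plate, Gpi1 0.59, Aldoa 0.14, Tpi1 0.21, Gapdh 0.24 and Ldha 0.34. Without Gm10800 it gave Aldoa 0.08 (fresh 8 h minus 1 h), Tkt -0.02 (vitrified 1 h minus 0 h) and, on the vitrified-only plate, Gpi1 0.40, Tpi1 0.02, Gapdh 0.05 and Ldha 0.15. With plates pooled, vitrified 8 h minus 4 h was -0.32 for Aldoa, -0.08 for Pgk1 and -0.28 for Eno1. Summed, Bnip3 had 1.07 and -0.79 in the fresh steps to 4 and 8 h, 1.12 and -0.80 in the vitrified ones and 0.17 between plates at 8 h.

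Counts of members called moved as follows. Vitrified minus fresh had 1 call at 0 h in limma (0 in edgeR), and at 8 h 2 in DESeq2 and 0 with only those groups (1 in edgeR). Between plates at 1 h limma had 1 and the fit of those groups alone 0 (4 in edgeR). For the difference of the steps to 8 h, the additive plate term, no filter and summing each gave 0 (1 in edgeR). Leaving out single libraries gave 0 to 1 for vitrified minus fresh at 8 h and for that step difference, 0 to 0 for vitrified minus fresh at 1 h and the other step differences, 17 to 19 for fresh 8 h minus 4 h (20 with all), 22 to 23 for fresh 8 h minus 1 h (22), 13 to 14 for vitrified 1 h minus 0 h (15), 23 to 25 for 4 h minus 1 h (25), 17 to 24 for 8 h minus 4 h (24), 18 to 21 for 8 h minus 1 h (20), 1 to 4 between plates at 1 h (4) and 15 to 22 at 8 h (22).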
